A study of Mus musculus with 15 samples.

Results

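The most abundant piRNA cluster of the mouse testis libraries lies on chromosome 17 from 27269742 to 27371971 (mm10), an interval of 102230 bp. It is listed as chr17_27269742_27371971 and was described here from every counted small RNA interval that overlaps it, on both strands and of all lengths. Such an interval is called a locus below. The cluster held 448074 of the 8128951 loci of the series and was 1 of 647 clusters. The study sequenced small RNA from whole testes of male C57Bl/6 mice aged 8 weeks, in 15 libraries. There were 3 libraries each of RNA carried through the chemistry without the reagent (mock-treated, in one label field untreated), RNA treated with CMC, the input of an immunoprecipitation with an antibody against pseudouridine (Ψ), the RNA bound by that antibody (Ψ-IP) and the RNA left unbound (flow-through). The mock-treated and CMC-treated libraries were made with NEBNext reagents and the other 9 with a Nextflex kit, so that kit and experiment cannot be told apart. Nothing in the labels ties replicates to separate animals, and p-values may measure technical spread only. In whole tissue, fewer cells of a type and less RNA per cell cannot be told apart.

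piRNAs are small RNAs that bind PIWI proteins, keep transposons silent and cleave other transcripts in germ cells. In the mouse, most piRNAs of adult testis are cut from long single-stranded precursors made at the pachytene stage of meiosis, and most begin with a uridine. MILI binds shorter piRNAs than MIWI does. Many pachytene clusters are transcribed in both directions from a central promoter under the transcription factor A-MYB. Ψ is an isomer of uridine. CMC forms an adduct with Ψ that blocks reverse transcription, so that loss from a CMC-treated library and gain in Ψ-IP are separate readouts of the same modification.

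Sequences are shown for the start of the plus-strand precursor and for loci that carry the results on uridine content below, where the reference files held their bases. The RefSeq promoter of Gm10505, the gene annotated on the plus strand from the middle of the cluster, covers chr17:27324946-27325245 (GRCm38.p6, the assembly of mm10, plus strand). Capitals mark matches to AACNG, the core of the motif of MYB proteins, searched on both strands, where a match on the other strand reads CNGTT.
Gm10505 promoter: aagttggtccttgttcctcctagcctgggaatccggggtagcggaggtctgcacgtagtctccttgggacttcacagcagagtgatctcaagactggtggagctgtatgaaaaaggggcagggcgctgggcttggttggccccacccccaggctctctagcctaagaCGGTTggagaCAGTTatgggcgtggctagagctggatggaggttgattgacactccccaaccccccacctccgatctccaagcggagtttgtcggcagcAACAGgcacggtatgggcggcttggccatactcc
This window held 3 matches. They began at 27325113, 27325123 and 27325212, which is -83, -73 and 16 nt from the RefSeq start. GENCODE M21 places the start of the gene further upstream, at 27325035. All 3 matches therefore lie downstream of that start, at which the cluster is divided below. Of 32817 RefSeq promoters of 300 bases, 80.3% held at least 1 match and 26.998% held at least 3. The longer CNGTTG, which overlaps AACNG on the other strand, had 2 matches, and as many were in 8.37% of the promoters. CCAAT, the letters of the CCAAT box, had 0 matches here and at least 1 in 37.4% of promoters. Matches describe the letters only. The RNA sequences below come from GENCODE M21 transcripts (GRCm38), except for that of P27342441/29, which lies inside a RefSeq promoter window, and capitals mark uridines. Loci are named by strand (P for plus, M for minus), the position of the 5′ base on chromosome 17 and the length in nt. The first 3 were chosen, after their values were seen, as examples of loci with a known sequence, and the next 3 are among the largest changes in Ψ-IP against input.
P27357417/30: UaUgagcUcUaUcgggUUUcUgaacccUgg
P27342441/29: UagaaUUUccggUcUggUcacacUcaUUc
P27356495/29: UgaUUagaUgaaUaUggUgaUgUggcUga
P27358261/23: UacUgcUUggcccUccUcUUcUc
P27361257/30: UUaacgUgaUaUUaaUUgUagUaaUUagUa
P27361258/31: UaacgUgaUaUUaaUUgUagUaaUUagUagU
All 6 begin with a uridine. The last pair overlaps almost wholly, at chr17:27361257-27361286 and chr17:27361258-27361288 on the plus strand, so that both forms come from the same region. A 29-nt locus that overlaps the hairpin annotated as Mir7217, and begins upstream of it, is set beside the mature miRNA that RefSeq gives for it, whose seed (bases 2 to 8) is in capitals.
P27355734/29: UcggaacUUgUaUcUUgUgagacagaagg
mmu-miR-7217-5p: aACUUGUAucuugugagacagaagg
The counted locus ran from 27355734 to 27355762 and the annotated miRNA from 27355738 to 27355762, so that both share the 3′ end.

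Counts in the cluster lay between 929870 and 6108336 per library. In counts scaled to a library total of 1000000 (CPM), the cluster ranked first of the 647 clusters in all 15 libraries. The 3 input libraries had 80706, 81050 and 81331 CPM, the Ψ-IP libraries 81540, 80329 and 80290 CPM, and the flow-through libraries 97295, 95683 and 91656 CPM. Mock-treated libraries ranged from 104296 to 107761 CPM and CMC-treated libraries from 106068 to 109060 CPM. Input and Ψ-IP overlapped, as did mock-treated and CMC-treated libraries, whereas flow-through lay above both other fractions of its experiment. edgeR's quasi-likelihood test, with Benjamini-Hochberg adjustment over all clusters, gave a log2 fold change of 0.005 for Ψ-IP against input (standard error 0.018, adjusted p = 0.869), where 9.87% of 547 clusters were called higher and 10.4% lower at an adjusted p under 0.01. CMC against mock treatment gave 0.03 (standard error 0.017, edgeR adjusted p = 0.245), where 1.08% of 646 clusters were called higher and 1.08% lower. Against flow-through, Ψ-IP was lower by -0.25 (standard error 0.028, adjusted p = 1.01e-05), where 20.5% of the clusters were called lower and 19.6% higher. The Ψ-IP libraries enter both of their comparisons, which are therefore not independent. The next most abundant cluster, on chromosome 9, reached 63220 CPM in the median input library.

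The cluster divided by strand at the annotated start of Gm10505, at 27325035. Left of this position 99.5% to 99.7% of the counts of each library were on the minus strand, and right of it 99.3% to 99.6% were on the plus strand. In bins of 250 bp over all libraries, minus-strand counts fell from 395393 in the last bin before the start to 2649 in the first bin after it. Plus-strand counts were 4498 in the last bin before the start, 3450 in the first after it, and 23816, 43282 and 132067 in the following 3. The minus strand thus ended sharply at the boundary, and the plus strand rose over several bins. Of the plus-strand counts, 98% lay in a run of 39 kb from 0.707 to 39.7 kb downstream of the start, and of the minus-strand counts, 98% lay in 34 kb that began -33.3 kb from it.

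**Figure D1:**
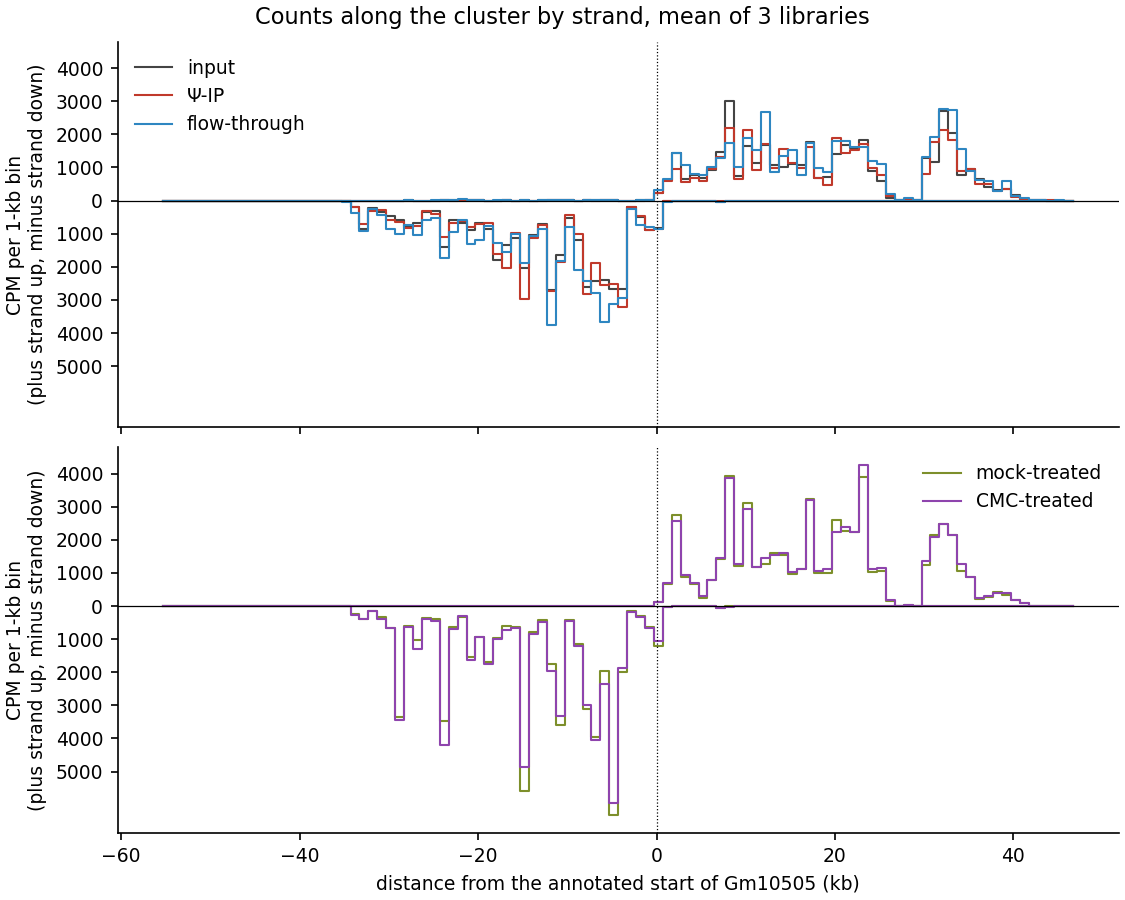
CPM per 1-kb bin along the cluster (mean of 3 libraries a group), plus strand above and minus strand below the line, against distance in kb from the annotated start of Gm10505. Minus-strand counts lie left of the start and plus-strand counts right of it in all 5 groups, and single bins of the mock-treated and CMC-treated libraries rise far above their neighbours.

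Both strands held nearly the same number of counts. The plus strand held 51.6%, 50.7% and 51.8% of the counts in input libraries, 49.8%, 49.0% and 49.5% in Ψ-IP and 49.9%, 50.1% and 50.1% in flow-through. Every Ψ-IP library was below every input and every flow-through library. The difference was -1.96 percentage points against input and -0.63 against flow-through, each with p = 0.1 in a two-sided exact permutation test, which can go no lower with 3 against 3. Mock-treated libraries had 50.6%, 50.8% and 51.0% and CMC-treated libraries 50.6%, 50.8% and 51.1%, which overlapped, with a difference of 0.007 points (exact permutation test, p = 0.9). Among the 73 clusters with at least 10000 counts in every library, the share of the lesser strand had a median of 0.608% and was under 5% in 54. It was over 40% in 4 clusters, and at 49.5% this cluster was the most balanced of the 73.

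In the test of each strand, the minus strand was higher in Ψ-IP than in input by 0.07 on the log2 scale (standard error 0.019, edgeR adjusted p = 0.00747), with 10.7% of 633 cluster strands called higher. It had 39067, 39934 and 39208 CPM in input libraries and 40952, 40982 and 40577 in Ψ-IP, groups that did not overlap. The call was lost with DESeq2's Wald test (adjusted p just above 0.01) and in 4 of 6 fits that left out 1 library, among them those without input replicate 1 (adjusted p = 0.0818) or input replicate 3 (adjusted p = 0.0756). The plus strand was not called (log2 fold change -0.04, adjusted p = 0.166). Against flow-through, where 25.9% of cluster strands were called lower and 20.7% higher, both strands were lower in Ψ-IP, by -0.25 for plus and -0.21 for minus (edgeR adjusted p = 6.61e-06 and 3.47e-05). With CMC the strands changed by 0.02 each and were not called (edgeR adjusted p = 0.45 and 0.411).

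The annotation places 4 long non-coding genes in the interval (GENCODE M21). Gm10505 runs on the plus strand from 27325035 to 27344833, and its span held 26.9% of the cluster's counts on its own strand, although its exons held 3.04%. Gm49793, a lincRNA on the minus strand from 27308316 to 27318696, held 19.7% in its span and 0.494% in exons. Gm49794, on the plus strand from 27354111 to 27367492, held 11.8%, nearly all of it exonic. Gm49795, on the minus strand from 27353861 to 27354668, had 89 counts in all 15 libraries. The counted small RNAs therefore covered introns of the first pair of genes and long stretches outside the annotation. Of the counts, 90.2% lay outside repeats, 7.56% in LTR elements, 1.03% in SINEs and 0.982% in LINEs. How reads with several alignments were counted is not stated, which leaves the position of loci inside repeats uncertain.

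Lengths formed 2 peaks. In the cluster the most frequent lengths were 27 and 30 nt in the Ψ-IP experiment and 26 and 29 nt in the CMC experiment. Loci of 24 to 28 nt made up 42.7% ± 0.479 of all counts in input and 47.6% ± 0.397 in mock-treated RNA (SD, n = 3 each). Loci of 29 to 31 nt held 46.3% ± 0.47 and 42.3% ± 1.38. In all other clusters of the input libraries the short class held 20.04% and the long class 69.0%, so that the shorter form had a far larger share here. The 30-nt share was lower in the cluster than over all other clusters in 15 of 15 libraries, with differences of -10.97 to -8.98 percentage points (exact sign-flip permutation test over the 15 libraries, two-sided, p = 6.1e-05 and the same after adjustment over 3 comparisons). Those libraries form 5 groups that may share RNA and are then not independent, which would make this p too small. At 18.9%, averaged over libraries, it was the lowest of the 73 clusters, whose median was 29.1% and highest 45.5%. Loci of 29 to 31 nt held 49.96% of the minus-strand and 42.8% of the plus-strand counts in input.

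**Figure D2:**
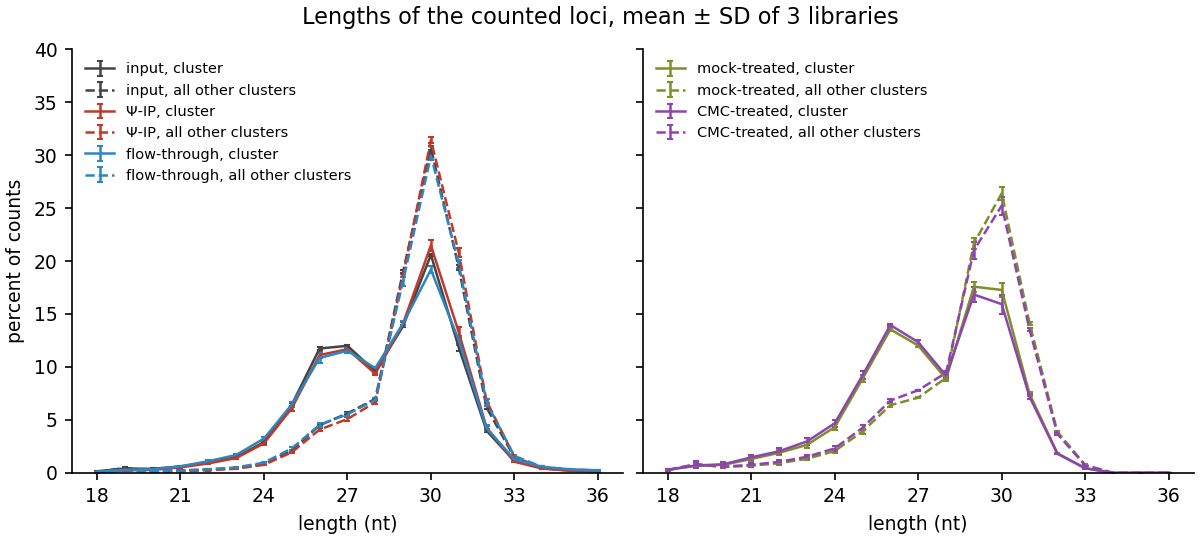
Percent of counts by length in nt (mean ± SD of 3 libraries), with the cluster as solid and all other clusters as broken lines, for the Ψ-IP experiment (left) and the CMC experiment (right). The cluster has a second peak near 26 to 27 nt, and its 30-nt share of 15.9% to 21.5% by group lies below that of the other clusters.

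Lengths also differed between the fractions. The 30-nt share was 20.6% ± 0.125 in input, 21.5% ± 0.493 in Ψ-IP and 19.2% ± 0.311 in flow-through (SD, n = 3 each). Every Ψ-IP library was above every input and flow-through library, by 0.897 and 2.29 percentage points on average (exact permutation test, p = 0.1 for each, the smallest possible). The other clusters had the same order, with 30.7% in input, 31.4% in Ψ-IP and 29.9% in flow-through. Counts of 29 to 31 nt were higher in Ψ-IP than in input by 0.10 on the log2 scale (standard error 0.022, edgeR adjusted p = 0.00219), a call lost without input replicate 1. Those of 34 nt or more were lower by -0.42 (standard error 0.053, edgeR adjusted p = 5.49e-05) and those of 23 nt or less by -0.25 (edgeR adjusted p = 0.00935), a call lost with DESeq2's size factors and without Ψ-IP replicate 2 or 3 or input replicate 1 or 3. Over all clusters 12.3% of 1040 length classes were called higher and 15.4% lower. Against flow-through all 5 length classes of the cluster were lower in Ψ-IP (22.5% of classes over all clusters), from -0.11 for 29 to 31 nt to -1.12 for 34 nt or more. Without Ψ-IP replicate 1, 3 classes were called lower, and those of 29 to 31 nt (edgeR adjusted p = 0.0309) and 32 to 33 nt were not. The class of 29 to 31 nt was also not called without Ψ-IP replicate 2 or flow-through replicate 1 or 2. With CMC the 30-nt share went from 17.3% ± 0.699 to 15.9% ± 0.904. The libraries overlapped (exact permutation test, p = 0.2), but between libraries of the same replicate number the share was lower with CMC in 3 of 3, by -1.19, -1.26 and -1.58 percentage points (two-sided exact sign-flip test over the pairs, p = 0.25, the smallest that 3 pairs allow). None of the 4 length classes tested was called by edgeR (0 of 1520 over all clusters, 298 with an unadjusted p under 0.05). With replicate number as a block, 1 class was higher.

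Windows along the cluster were called in both directions, while its total was not called against input. Of 32 windows of 5 kb and 1 strand, 6 were higher and 13 lower in Ψ-IP than in input (edgeR adjusted p under 0.01), against 13.4% and 17.1% of 1438 windows in all clusters. The largest rise was in the plus-strand window from 27349742, where input libraries had 708, 735 and 724 CPM, Ψ-IP libraries 1028, 965 and 975 CPM and flow-through libraries 1549, 1380 and 1248 CPM. Both fractions of the immunoprecipitation were above input there, and flow-through was highest. Its log2 fold change was 0.48 against input (standard error 0.037) and -0.46 against flow-through. On the minus strand the window with the most pooled counts, from 27309742, rose by 0.25 (standard error 0.031). It had 8122 ± 161 CPM in input and 9450 ± 201 in Ψ-IP (SD, n = 3 each). By mean CPM over all 15 libraries the minus-strand window from 27314742 was higher, at 10266 against 10122. That window had 9142 CPM in input and was not called (-0.037, edgeR adjusted p = 0.428). The first windows downstream of the start on the plus strand, from 27324742 and 27329742, were lower by -0.27 and -0.23, whereas the third, from 27334742, was higher by 0.19.

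Against flow-through, 21 of 32 windows were lower in Ψ-IP and 0 higher (27.5% lower and 24% higher over all clusters). In 2-kb windows, 36 were lower and 5 higher. Of 11 windows on the lesser strand of a side, which held few counts, 7 were lower in Ψ-IP than in input and 11 lower than in flow-through. Of the 21 other windows, 6 were higher and 6 lower against input and 10 lower against flow-through. The lesser-strand window with the largest difference from flow-through, the minus-strand window from 27344742, had 17.7, 15.7 and 17.3 CPM in input, 11.2, 10.9 and 12.2 in Ψ-IP and 26.6, 26.004 and 25.7 in flow-through. Flow-through was highest and Ψ-IP lowest, with log2 fold changes of -0.53 and -1.15. Over the whole cluster these minority-strand loci held 0.438% to 0.497% of the counts in input, 0.346% to 0.376% in Ψ-IP and 0.53% to 0.592% in flow-through. CMC changed 0 of 36 windows in either direction (0.0525% higher and 0.683% lower of 1904), and 2 higher and 2 lower with replicate number as a block. The nearest to the threshold was the minus-strand window at the start, from 27324742, with 1245, 1274 and 1214 CPM in mock-treated and 1093, 1101 and 1058 CPM in CMC-treated libraries. These groups did not overlap, and edgeR gave -0.22 on the log2 scale (standard error 0.035, adjusted p = 0.0114).

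**Figure D3:**
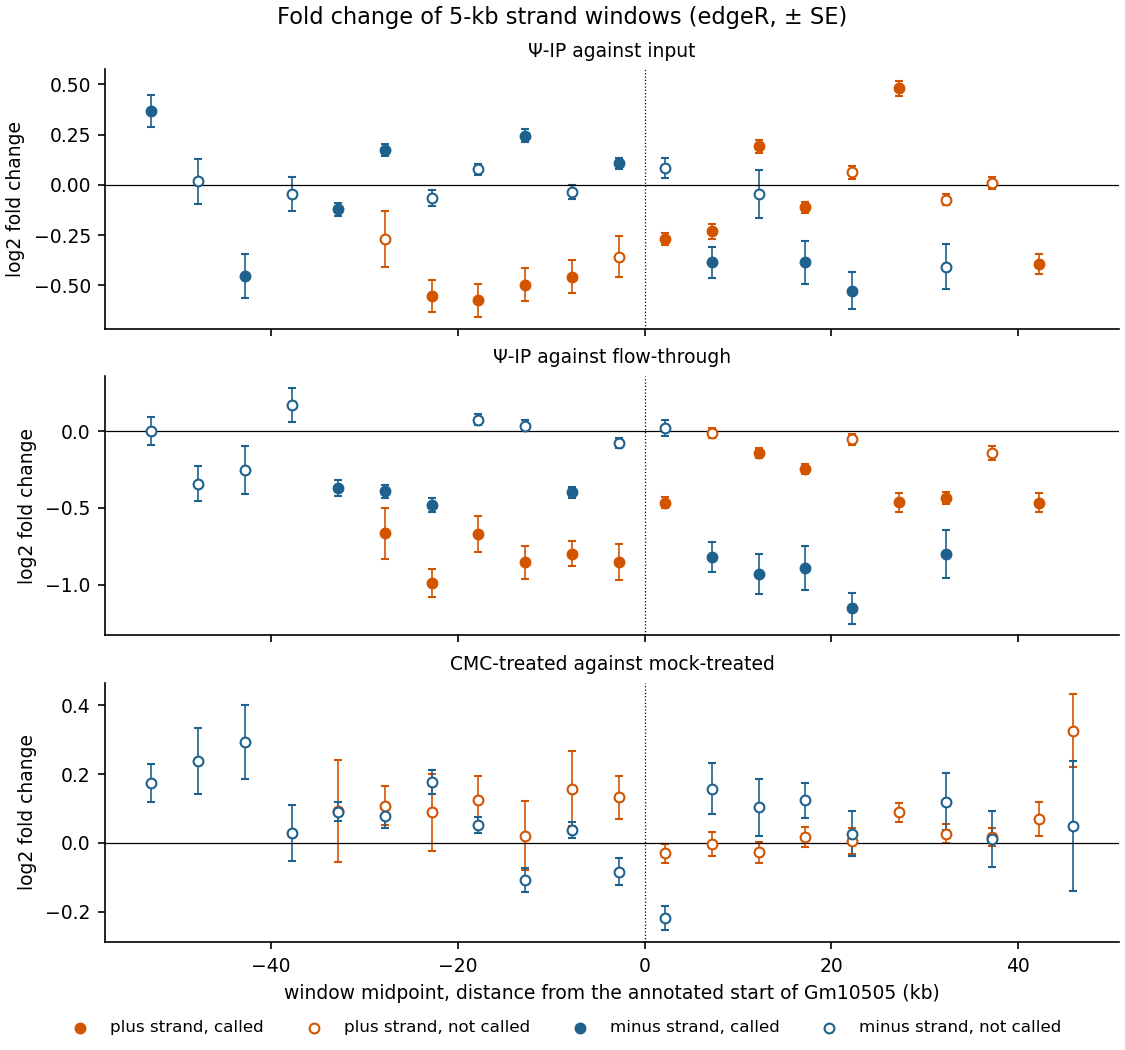
log2 fold change ± SE of 5-kb windows by strand (edgeR) against distance of the window midpoint from the start of Gm10505, for 3 comparisons, with filled points for adjusted p under 0.01. In Ψ-IP against input 7 of the 11 lesser-strand windows wholly on 1 side of the start are filled below 0, and the plus-strand window at 24.7 to 29.7 kb is highest at 0.48, and no window is filled for CMC.

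A small number of 5′ ends held much of the cluster. Of 75637 5′ ends, 8 held 10%, 42 held 25% and 270 held 50% of the counts of all libraries. The concentration differed by experiment, since 50% of the counts took 112 to 115 ends in mock-treated and 518 to 532 ends in input libraries. The ends themselves also differed. Of 1492 ends that averaged at least 10 CPM in input and mock-treated libraries, 379 were over 4-fold higher in mock-treated and 422 over 4-fold higher in input libraries, on the log2(CPM + 1) scale. Of the 100 most abundant ends of each group, 30 were shared. Kit and experiment differ together here, and their parts were not tested. Pearson's r over ends was 0.951 to 0.995 between libraries of a group and 0.647 to 0.713 between experiments, where points share libraries and depth.

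The most abundant 5′ end, on the plus strand at 27333015 in an intron of Gm10505, had 1695 ± 355 CPM in input, 766 ± 57.6 in Ψ-IP, 342 ± 35.4 in flow-through, 2283 ± 113 with mock treatment and 2045 ± 324 with CMC (SD, n = 3 each). It was lower in Ψ-IP than in input (log2 fold change -1.20, edgeR adjusted p = 3.4e-08) and higher than in flow-through (1.41, edgeR adjusted p = 1.04e-07), so that input exceeded both fractions. Loci of 30 nt made up 69.3% of its counts. The next end, on the minus strand at 27296027, showed the gap between experiments at its widest among the leading ends, with 59.1 ± 4.73 CPM in input and 2920 ± 212 in mock-treated libraries. The minus-strand end at 27310506 had 325 ± 7.26 CPM in input, 608 ± 57.0 in Ψ-IP and 170 ± 48.4 in flow-through. It rose in Ψ-IP against input by 0.86 and against flow-through by 2.09 (edgeR adjusted p = 5.45e-05 and 2.1e-13). Of the 10 leading ends, 3 fell with CMC. Over all 5′ ends of the series, 7.68% were called higher and 11.2% lower in Ψ-IP against input, 10.8% and 5.05% against flow-through, and 1.17% and 1.02% with CMC. They were P27345063 (-0.55, edgeR adjusted p = 0.00167), M27314109 (-0.47, edgeR adjusted p = 0.00468) and M27320336 (-0.45, edgeR adjusted p = 0.00865). The first pair of these rose in Ψ-IP against input, by 0.93 and 0.71 (edgeR adjusted p = 1.54e-05 and 0.00122). Against flow-through neither was called, at 0.28 and 0.51 (edgeR adjusted p = 0.391 and 0.0924).

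Single loci were tested where their summed counts exceeded 20. This left 55392 of the 448074 loci for Ψ-IP against input, of which 3068 (5.54%) were higher and 6165 (11.1%) lower, against 5.45% and 10.7% of all loci of the series. The shares were close to those of the series. Against flow-through 3338 of 55386 loci (6.03%) were higher and 2538 (4.58%) lower, with 9.3% and 3.57% in the series. With CMC 577 of 44881 loci (1.29%) were higher and 195 (0.434%) lower, with 1.07% and 0.654% in the series. The number lower with CMC depended on single libraries. It was 56 without mock-treated replicate 2, 77 without CMC-treated replicate 2, 97 without mock-treated replicate 3 and 311 without CMC-treated replicate 1. The number higher with CMC was 317 without mock-treated replicate 2. With replicate number as a block, 703 were higher and 326 lower. The number higher in Ψ-IP against input fell to 1425 without input replicate 1 and to 1393 without input replicate 3, and the number lower to 3638 without input replicate 1. The number lower against flow-through was 1583 without Ψ-IP replicate 2 and 1658 without Ψ-IP replicate 1.

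The largest rise in Ψ-IP against input, among loci averaging 100 counts or more and higher in each of the 9 library pairs, was P27358261/23 in an exon of Gm49794. It had 1.92, 2.11 and 2.17 CPM in input libraries, 15.8, 6.82 and 10.5 in Ψ-IP and 26.1, 20.99 and 20.3 in flow-through. Both fractions were above input, and flow-through was higher than Ψ-IP. Its log2 fold change was 2.27 against input (standard error 0.272, called by edgeR) and -0.79 against flow-through (edgeR adjusted p = 0.0315, not called). M27311012/31 had 5.12 ± 1.12 CPM in input, 24.8 ± 2.56 in Ψ-IP and 32.4 ± 5.69 in flow-through, of which the last 2 overlapped (edgeR adjusted p = 0.782). The other 3 largest rises were above both input and flow-through. They were M27313854/30, M27313854/31 and P27335696/33, with log2 fold changes of 2.24, 2.08 and 2.12 against input and 2.76, 2.69 and 3.00 against flow-through. All 3 had under 0.2 CPM in each mock-treated and CMC-treated library.

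The largest fall against input was at M27313501/33, with 14.1, 7.06 and 9.96 CPM in input and 0.428, 0 and 0.46 CPM in Ψ-IP. All input libraries were far above all Ψ-IP libraries (log2 fold change -5.08, standard error 0.361), and flow-through lay between them at 4.47 ± 0.822 CPM. The overlapping loci P27361257/30 and P27361258/31, printed above with 13 uridines each, fell by 4.57 and 4.09 on the log2 scale. P27361258/31 had 18.9 ± 4.73 CPM in input, 1.22 ± 0.131 in Ψ-IP and 4.66 ± 1.96 in flow-through, with both fractions below input. These loci were chosen for changes in the same direction in all 9 library pairs. P27357417/30, chosen for its level, fell less (-1.54), from 246 ± 9.63 CPM to 93.2 ± 33.6 (SD, n = 3 each).

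Against flow-through, 4 of the 5 largest rises were on the minus strand, and 3 of these shared a short stretch inside Gm49793 with 5′ ends at 27310345 and 27310346. The 30-nt form at 27310345 was not among these 3 and rose less than the 29-nt and 31-nt forms there. It had 5.54, 6.69 and 7.69 CPM in flow-through, 146, 243 and 95.4 in Ψ-IP and 60.9, 56.4 and 78.9 in input. The 3 fractions did not overlap and ran from flow-through over input to Ψ-IP. It was higher in Ψ-IP by 4.85 against flow-through (standard error 0.29) and by 1.16 against input (standard error 0.198). In the other experiment it had 297, 319 and 262 CPM in mock-treated and 227, 211 and 195 in CMC-treated libraries, which did not overlap either (log2 fold change -0.53, standard error 0.11, edgeR adjusted p = 0.00164). The call with CMC was lost in 4 of 6 fits without 1 library, with adjusted p from 0.0129 (without CMC-treated replicate 2) to 0.0751 (without mock-treated replicate 2), and that against input with DESeq2's Wald test (adjusted p = 0.0294). The largest rise, of 6.58 (standard error 0.422), was at M27308313/30, with 0.186, 0.27 and 0.28 CPM in flow-through and 27.1, 18.9 and 14.9 in Ψ-IP. Input was as high as Ψ-IP there, at 18.9 ± 5.04 CPM. The largest fall was at M27323230/27, inside an RMER4A element, with 17.2, 12.03 and 12.6 CPM in flow-through and 0.0856, 0.432 and 0.501 in Ψ-IP (log2 fold change -4.94, standard error 0.422).

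The same minus-strand stretch held 2 of the 5 largest falls with CMC. M27310348/29, which begins 3 nt upstream of the locus at 27310345, had 285, 300 and 293 CPM in mock-treated and 160, 135 and 131 in CMC-treated libraries. The groups lay far apart (log2 fold change -1.11, standard error 0.113). It was higher in Ψ-IP than in flow-through by 3.58 and than in input by 0.91, the second a call lost with the looser filter (adjusted p = 0.0369) and in 4 of 6 edgeR fits without 1 library (Ψ-IP replicate 2 or any input library, adjusted p 0.0111 to 0.0356). M27310348/30 fell by 1.133 on the log2 scale (standard error 0.134). The other 3 were M27293106/30 (-1.42), P27333431/26 (-1.16) and M27321363/26 (-1.11). Of the 26108 loci tested in both experiments, 52 were higher in Ψ-IP than in input and lower with CMC, 50 were lower and higher, 14 were higher in both and 5 lower in both. These were 0.199%, 0.192%, 0.0536% and 0.0192% of the loci, against 0.298%, 0.19%, 0.0361% and 0.0576% of 293534 loci in the series.

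The largest rises with CMC had a feature in common that was noticed after their values were seen. Each shared its 3′ end with an abundant locus and began 1 to 5 nt further downstream. P27333017/28 lacks the first 2 nt of P27333015/30. It had 14, 20 and 22 counts with mock treatment and 462, 175 and 264 with CMC (log2 fold change of the locus 4.32, standard error 0.208). Per 100 counts of the longer form this was 0.0278, 0.0259 and 0.0434 in mock-treated and 0.662, 0.666 and 0.904 in CMC-treated libraries. In input libraries it was 0.245, 0.223 and 0.27, between the 2 groups. The order was not the same for every locus, since M27310505/28 had 1.69, 2.12 and 1.98 per 100 counts of its longer form in input and 0.50 to 0.641 with CMC. M27296026/28 had 0.82, 1.72 and 0.165 per 100 in input and 0.725 to 0.853 with CMC. M27296026/28 and M27310505/28 each lack 1 nt of the leading minus-strand loci and rose by 4.01 and 2.92. M27310343/24 lacks 5 nt of M27310348/29, which itself fell, and rose by 2.78. P27345065/27 lacks 2 nt of P27345063/29 and rose by 2.54. The longer form was lower with CMC, at -0.50 on the log2 scale (edgeR adjusted p = 0.00679). That call was lost with DESeq2's Wald test (adjusted p = 0.02), with the looser filter and in 5 of 6 edgeR fits without 1 library (all but that without CMC-treated replicate 1, adjusted p 0.0362 to 0.0796).

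**Figure D4:**
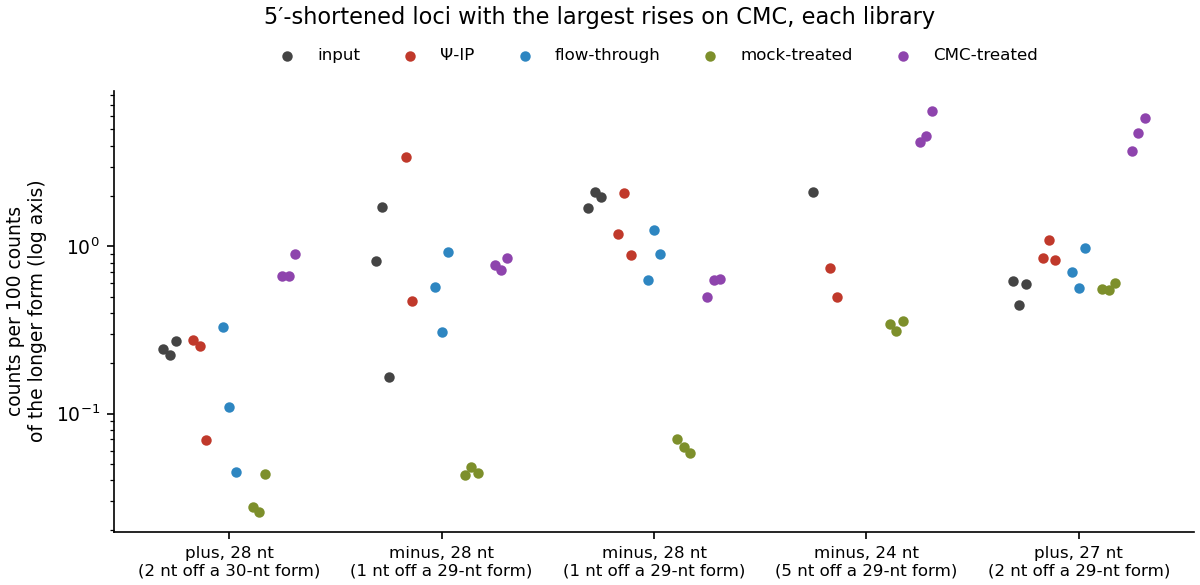
Counts of 5 shortened loci per 100 counts of the longer form with the same 3′ end, on a log axis, with 1 point per library and groups by colour. In each of the 5 the CMC-treated libraries lie above all mock-treated libraries. Libraries at 0 are not drawn.

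Abundant loci of the cluster as a whole had more such forms after CMC. Loci outside the cluster were not examined in this way, so the difference may not be particular to it. The reference was the most abundant form of each 3′ end in the CMC experiment, where it averaged at least 1000 counts (482 forms). Forms with the same 3′ end and a 5′ end 1 to 8 nt downstream were set against it. Per 100 counts of the reference forms, they amounted to 12.7 ± 0.225 counts with mock treatment and 15.6 ± 0.685 with CMC (SD, n = 3 each). The groups did not overlap (p = 0.1 in a two-sided exact permutation test, its lower limit here). Input, Ψ-IP and flow-through had 14.6, 14.2 and 13.2. Of 477 reference forms with enough counts, the mean was higher with CMC in 453, and 309 were higher in all 9 pairs of libraries against 2 that were lower in all. Forms shortened by 1 to 8 nt at the 3′ end went from 198 ± 4.14 to 203 ± 6.85 per 100 counts, with overlapping libraries (exact permutation test, p = 0.4). For 72 reference forms with known sequence, the forms whose last removed base was a uridine averaged 1.96 per 100 counts with mock and 2.54 with CMC treatment. Where it was another base the values were 1.34 and 1.42. Libraries without CMC in the other experiment were not lower throughout, since for uridine input had 2.60, Ψ-IP 3.97 and flow-through 2.39, and for other bases 2.44, 1.10 and 1.12. All 72 begin with a uridine, so every form shifted by 1 nt is in the first class.

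Uridine content could be read for 98250 loci inside annotated exons or promoter windows, which held 17.4% of the counts (32.9% of those on the plus and 1.45% of those on the minus strand). This is too few for a check of base composition over the cluster, and the values describe those loci only. In mock-treated libraries 29.8% to 30.1% of their bases were uridine, weighted by counts, and in CMC-treated libraries 28.6% to 28.7%. Input had 28.9% to 29.1%, Ψ-IP 28.8% to 29.6% and flow-through 23.7% to 25.1%. CMC-treated libraries were below mock-treated and flow-through libraries below the other 2 fractions, without overlap, while input and Ψ-IP overlapped.

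Shares of calls differed between classes of uridine content. Against flow-through, 3 of 2700 tested loci under 20% uridine were higher in Ψ-IP (0.111%), as were 48 of 4319 from 20% to under 30% (1.11%), 222 of 3150 from 30% to under 40% (7.05%) and 316 of 1299 of at least 40% (24.3%). The lower calls ran the other way, from 10.2% in the first class to 0.385% in the last. The median log2 fold change went from -1.10 over -0.53 and 0.03 to 1.61. The number higher in the last class was 209 without Ψ-IP replicate 2. With CMC, 0 of 2236, 1 of 3518, 2 of 2835 and 32 of 1143 loci were lower in the same classes, and the median log2 fold change went from 0.32 over 0.13 and -0.055 to -0.34. The loci higher with CMC showed no such order, at 1.3%, 0.796%, 1.87% and 0.35%. The number lower with CMC in the last class was 7 without mock-treated replicate 2, 9 without CMC-treated replicate 2, 16 without mock-treated replicate 3 and 20 without mock-treated replicate 1 or by DESeq2's Wald test, and 55 with replicate number as a block. Against input the classes differed less. Loci higher in Ψ-IP made up 3.93%, 3.85%, 5.14% and 8.54%, and loci lower 7.74%, 12.1%, 14.7% and 9.15%. Of the loci of at least 40% uridine, 111 were higher against input, a number that was 50 without input replicate 1 and 56 without input replicate 3. Overlapping loci share a region, and these classes were set up after the files had been examined. The printed loci moved in both directions. P27356495/29, with 10 uridines, rose in Ψ-IP by 1.14 against input and 0.97 against flow-through, whereas P27361258/31, with 13, was at -4.09 and -1.66, and P27357417/30, with 10, was at -1.54 against input. Against flow-through it was at 0.83 (edgeR adjusted p = 0.00679), a call lost with DESeq2's Wald test, both other filters, the block and 4 of 6 fits without 1 library, among them 0.51 without Ψ-IP replicate 2 (edgeR adjusted p = 0.194).

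**Figure D5:**
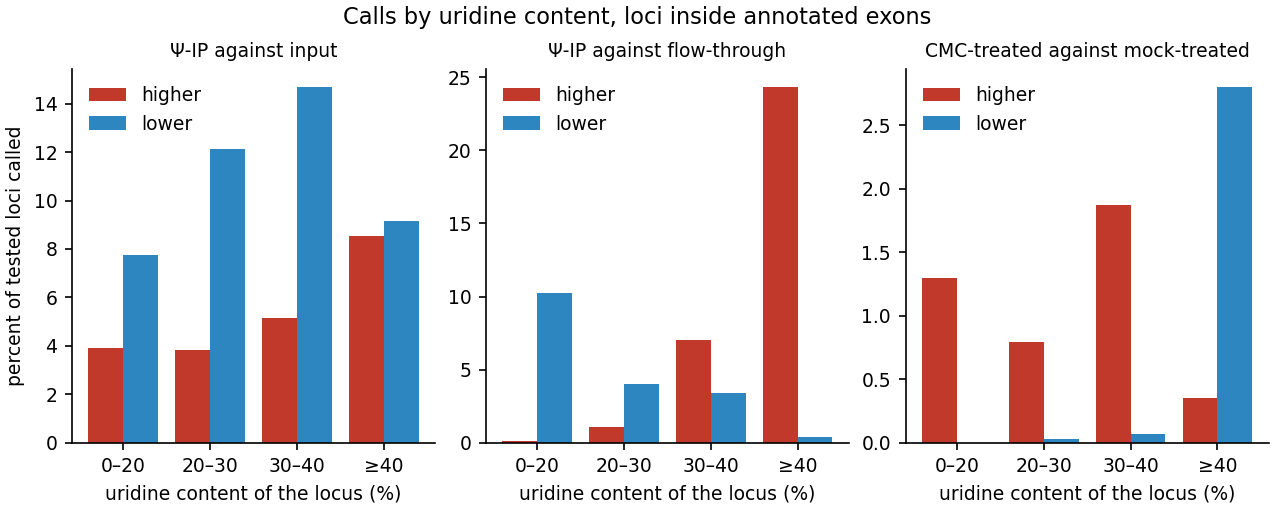
Percent of tested loci called higher or lower (edgeR adjusted p under 0.01) by uridine content, for loci inside annotated exons or promoter windows, with a separate vertical scale in each panel. Loci of at least 40% uridine are called higher in Ψ-IP against flow-through in 24.3% and lower with CMC in 2.8% of cases.

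Of the counts on both sides of the boundary, few could be paired with the opposite strand. The sum of the smaller CPM over pairs of 5′ ends whose loci overlap by 10 nt on opposite strands was 307, against 181 to 237 at the other overlaps from 1 to 30 nt. The number of such pairs was also highest at 10 nt, at 13623. An overlap of 10 nt is the mark of slicing by PIWI proteins that feed on one another. The sum is small beside the total of the cluster.

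RefSeq annotates 4 miRNA hairpins inside the cluster. Loci that overlapped the Mir7217 hairpin (27355738 to 27355799) by at least 1 base had 625 CPM on average, and 50.6% of this level began at 27355734, outside the hairpin, at the start of the 29-nt locus printed above. Loci that began at the annotated start of miR-7217-5p had 0.103 CPM, and those at the start of miR-7217-3p had 72.5 CPM, of which 3.41 CPM had the exact mature length. At P27355734/29 input libraries had 143, 121 and 139 CPM, Ψ-IP libraries 26.7, 25.2 and 26.1 and flow-through libraries 69.5, 95.3 and 118. Ψ-IP was lowest without overlap, with log2 fold changes of -2.51 against input and -1.60 against flow-through. Loci overlapping Mir7214, Mir7216 and Mir7218 had 269, 23.1 and 136 CPM, and the most abundant 5′ end of each lay outside the hairpin, with 7.69 CPM beginning at the annotated start of miR-7218-5p. Of the CPM of loci overlapping each of the 4 hairpins, 68.2% to 88.6% were 25 to 32 nt long, as is usual for piRNAs, and 5.65% to 27.8% were 19 to 24 nt long, which includes the length of miRNAs.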

How the data were processed

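Per the labels and the methods, adaptors were clipped with Cutadapt, tRNA fragments set aside and the other reads mapped to mm10 with Bowtie2, with up to 3 mismatches, then intersected with repeats and piRNA clusters with bedtools. The authors deposited raw counts per genomic interval, strand and repeat, 1 file per library, and replicates were not pooled. Counts were joined by locus in Python 3.11.15 (pandas 2.3.3), and loci overlapping the cluster on either strand were taken as members. edgeR 4.0.16 in R 4.3.3 (TMM, quasi-likelihood test, Benjamini-Hochberg adjustment over the whole table) was run on the 6 libraries of each comparison. The tables were loci with more than 20 counts in total in their experiment, 5′ ends, 5-kb strand windows, length classes, strands and clusters with an average of at least 100 counts. A call is an adjusted p under 0.01. Standard errors were taken as |log2 fold change| over √F. Shares were compared with exact permutation tests. CPM are counts scaled to a library total of 1000000, whereas fold changes use TMM.

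Named loci were the 5 most abundant of each strand, the 5 largest rises and falls of each comparison with an average of at least 100 counts and the same direction in all 9 library pairs, and abundant loci called in both experiments. Members, lists and tests were chosen with earlier results of these data known. The fits were tested on simulated data. Loci were simulated from the stricter-filtered table, which holds fewer loci than the reported fits. Of 100 loci changed 8-fold and 100 changed 4-fold, 81 and 63 were recovered for Ψ-IP against input and 68 and 48 against flow-through (235876 loci, 0 false calls each), and 95 and 82 for CMC (279548 loci, 5 false calls). Alternatives were DESeq2 1.42.0, other filters, 2-kb windows, lengths of 24 to 33 nt, each locus counted once, replicate number as a block and leaving out each library. Within each group, replicate counts varied beyond sampling noise (chi-square per degree of freedom 2.41 to 9.87 over loci). For CMC, the deviations of libraries that share a number had r of 0.125, 0.146 and 0.295 across 87515 loci averaging more than 50 counts. With a minimum average of 10 counts r was 0.054, 0.070 and 0.171. Libraries did not each correlate best with the library of their own number. The block was treated as a possible pairing only, and its value is given where it moves a count. For Arabidopsis the paper describes RNA divided between CMC and mock treatment, and an analysis of such libraries as pairs. Neither labels nor methods say that equal numbers mark a pair among the mouse libraries. Counts carry no molecular identifiers, so reads are not independent molecules. miRNA and tRNA fragment files were not analysed here.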

Additional observations from a re-analysis of the deposited data

How the results depend on the processing

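The whole cluster and the plus strand kept their side of the threshold in all 3 comparisons under every alternative run. Leaving out 1 library gave a change of the whole cluster in Ψ-IP against input from -0.0095 to 0.018, on both sides of 0. The minus strand in Ψ-IP against input was 0.085 with DESeq2's Wald test and 0.072 with lengths of 24 to 33 nt, neither called, and 0.051 to 0.079 with 1 library left out, called in 2 of 6. With each locus counted once, the plus-strand share differed by -0.23 points (Ψ-IP against input) and -0.13 (against flow-through), and the 30-nt share by 0.18 (Ψ-IP against flow-through) and -0.15 (CMC). The plus-strand share with CMC was -0.0286 points with 24 to 33 nt and -0.14 to 0.13 with 1 library left out.

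Loci called in Ψ-IP against input were 1893 (higher) and 3859 (lower) by the Wald test of DESeq2, 1642 higher with a looser filter, 3731 lower with a stricter one and 1771 higher and 2611 lower as 5′ ends. With 1 library left out they were 1393 to 3315 higher and 3638 to 5999 lower. Against flow-through, 5′ ends gave 1450 higher and 1550 lower, and leaving out 1 library gave 1583 to 2190 lower loci (1658 without Ψ-IP replicate 1, 1583 without replicate 2). With CMC, DESeq2's Wald test gave 372 higher loci, 5′ ends 274 higher and 119 lower, the replicate block 326 lower, and leaving out 1 library 317 to 602 higher and 56 to 311 lower. Called windows in 2-kb steps were 5 higher and 36 lower against flow-through and 2 higher with CMC. With CMC, 5-kb windows were 2 higher and 2 lower under the replicate block, 1 and 1 with DESeq2's Wald test, and 0 to 1 higher and 0 to 2 lower with 1 library left out. Length classes lower in Ψ-IP against input were 1 with DESeq2's size factors and 1 to 2 with 1 library left out, those higher 0 to 1, and those lower against flow-through 3 to 5. With CMC 1 class was higher under the replicate block. The cause of these moves was not tested. The replicate block moved no other of these counts by over 1.5 times and changed no other call on the cluster or its strands. For Ψ-IP the numbers did not pair the libraries (correlations 0.251, 0.304 and -0.03 with input), and the block gave 2627 higher and 5412 lower loci.

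Of the named loci called, 6 of 28 in Ψ-IP against input, 4 of 25 against flow-through and 9 of 19 with CMC lost the call under at least 1 alternative, and 5, 4 and 9 did so with 1 library left out. None of the called loci changed sign. The values that did change sign belonged to loci that were not called. In Ψ-IP against input, M27320336/29 was -0.0076 with DESeq2's Wald test, -0.0077 with its size factors, -0.16 with a looser filter and -0.047 with the block. M27296026/28 was 0.11 with the Wald test. With a stricter filter M27308313/30 was 0.044 and M27310505/28 was 0.039. With the block M27296026/28 was -0.61 against flow-through and P27340482/27 was 0.0079 with CMC, and with a looser filter M27318628/26 was -0.098 with CMC. With 1 library left out, the ranges in Ψ-IP against input were -2.99 to 0.75 (M27296026/28), -0.27 to 0.093 (M27308313/30), -0.53 to 0.18 (M27310505/28), -0.35 to 0.083 (M27318628/26) and -0.38 to 0.28 (M27320336/29). Against flow-through they were -0.11 to 0.36 (P27327457/30), -0.18 to 0.14 (P27345065/27), -2.82 to 0.81 (M27296026/28) and -0.20 to 0.43 (M27320336/29). With CMC they were -0.17 to 0.13 (P27340482/27), -0.34 to 0.021 (P27358261/23) and -0.039 to 0.041 (M27318628/26).

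Alternatives chosen after seeing the data were those for shortened forms and uridine classes and the paired test of the 2 shares. The difference in 5′-shortened forms between CMC and mock treatment, 2.92 per 100 counts, was 2.68 for reference forms with an average of at least 100 counts and 2.53 to 3.18 with 1 library left out. Loci of at least 40% uridine called higher in Ψ-IP were 65 against input by DESeq2's Wald test, and 209 to 276 against flow-through with 1 library left out. Of 100 simulated 4-fold changes at single loci of the stricter-filtered table, 63 were recovered for Ψ-IP against input, 48 against flow-through and 82 for CMC.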
